A study of Mus musculus with 2 samples.

Results

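Mir21a, Mir22, Mir132 and Mir212 are 4 mouse microRNA genes that are widely studied for their link to enlargement of the heart muscle. They were taken by gene name from the 2202 microRNA genes counted, and all 4 had at least 10 counts in each library, as had 373 genes in all. Small RNA was sequenced from heart tissue of female B6CASTF1/J mice, a first-generation cross of the C57BL/6J and CAST/EiJ strains, at 4 days of age. The series held 1 group of 2 hearts with no treatment or mutant allele named, called replicates 1 and 2 here as in the labels. The labels numbered the animals 3 and 4 and gave both the same donor entry, so whether the hearts share more than a strain cannot be told. Replicate 1 had 6417302 counts on the genes' own strand and replicate 2 had 5662222. A floor of 3 counts equalled 0.467 own-strand counts scaled to a library total of 1000000 (CPM) in replicate 1 and 0.530 CPM in replicate 2. No hypertrophic, older or adult heart was analysed here, so the values are levels at this age and their spread between 2 hearts, and with 1 group no p-value is given.

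A microRNA is cut from a hairpin in a longer transcript, and either arm of the hairpin can become a mature strand that represses messenger RNAs matching its seed, bases 2 to 8. In mouse hearts under pressure overload miR-21 rises and has been tied to fibroblast survival and growth signalling. miR-22 is enriched in heart and skeletal muscle, and mice without it mount a weaker hypertrophic response. miR-132 and miR-212 come from 1 transcript that the factor CREB activates in neurons, and in mouse heart muscle cells they repress Foxo3 and favour cell growth. All 7 heart muscle marker genes had counts, led by the genes inside myosin genes. Mir208a was at 10883 CPM in replicate 1 and 6019 CPM in replicate 2, Mir208b at 7457 and 5640.4 CPM, and Mir499, the one of these that was higher in replicate 2, at 2653 and 7487 CPM. For the Mir1a and Mir133a genes, multi-mapped reads are not counted. Of these genes, Mir1a-2 (21.2 and 33.6 CPM), Mir133a-1 (5.61 and 7.59 CPM) and Mir1a-1 (1.40 and 3.36 CPM) were higher in replicate 2. Mir133a-2 (1.87 and 0.353 CPM) was higher in replicate 1, with only 12 counts there and 2 in replicate 2, the latter under the floor.

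The mature strands show which of these genes could act on the same targets, since strands with the same seed share predicted targets. All 4 genes matched RefSeq (build GRCm38.p6), which lists 8 mature strands for them. The strands usually cited as the active ones are shown 5′ to 3′ with the seed in capitals.
miR-21a-5p: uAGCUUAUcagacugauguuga
miR-22-3p: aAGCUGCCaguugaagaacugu
miR-132-3p: uAACAGUCuacagccauggucg
miR-212-3p: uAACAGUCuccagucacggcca
The miR-132-3p and miR-212-3p strands had the same seed, and no other of the 1679 RefSeq mature microRNAs had it. They were identical over the first 9 bases and at 17 of 22 positions in all. Counted from the 5′ end, miR-212-3p differed from miR-132-3p by A10C, C14U, U17C, U20C and G22A. Among these RefSeq strands, the miR-21a-5p seed was shared with miR-21c alone, and the miR-22-3p seed with no other. Mature strands outside this RefSeq set were not searched for these seeds. The seeds of miR-21a-5p and miR-22-3p matched at 4 of 7 bases.

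The genes named after miR-21 could be mistaken for one another in the counting, so their strands are shown against miR-21a-5p, again with the seed in capitals.
miR-21b: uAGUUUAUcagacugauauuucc
miR-21c: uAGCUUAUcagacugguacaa
From position 1 at the 5′ end of miR-21a-5p, which has 22 bases, miR-21b differed over 22 positions by C4U, G18A, G21U and A22C and has 23 bases. The miR-21c strand differed over 21 positions by A16G, G18A, U19C, U20A and G21A and has 21 bases. Mir21b on chromosome 3 had 1 count in replicate 1 and 0 in replicate 2, and Mir21c on chromosome 8 had 0 in both. Mir21a thus held 33690 of the 33691 counts of the 3 genes in replicate 1 and all 109355 in replicate 2. The longest stretch any of the hairpins shared with another microRNA gene that it did not overlap was 15 nt for Mir21a (with Mir21c), 13 nt for Mir22, 11 nt for Mir132 and 12 nt for Mir212. Each mature strand was found in 1 RefSeq hairpin, its own. In GENCODE M21 transcripts the Mir21a strands occurred only in Mir21a and Vmp1, the Mir22 strands only in Mir22, Mir22hg and Tlcd2, and the strands of Mir132 and Mir212 only in their own genes. Copies elsewhere in the genome were not searched. Counts were made per hairpin, so the arms of 1 hairpin could not be told apart.

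All 4 genes lie on chromosome 11 (mm10, annotation M21), a property the choice by name did not use. Mir212 (ENSMUSG00000065590.1, chr11:75173388-75173478, plus strand) and Mir132 (ENSMUSG00000065537.2, chr11:75173682-75173747, plus strand) are 203 bp apart, both in intron 1 of the noncoding transcript 1700016P03Rik. Their hairpins are shown 5′ to 3′ with both mature arms in capitals, since they come from 1 transcript and differ in size and base composition.
Mir212: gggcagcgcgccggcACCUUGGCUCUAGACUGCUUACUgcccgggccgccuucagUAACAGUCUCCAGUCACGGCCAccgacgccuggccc
Mir132: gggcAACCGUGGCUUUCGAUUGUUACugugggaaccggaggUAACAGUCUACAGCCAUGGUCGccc
The Mir212 hairpin has 91 bases with 69.2% G or C and 17 bases between its arms, and the Mir132 hairpin has 66 bases with 57.6% G or C and 15 bases between its arms. The 5p arms of this pair matched at 9 of 22 positions compared from the first base, against 17 of 22 for the 3p arms. Mir22 (ENSMUSG00000065529.1, chr11:75463716-75463810, plus strand) lies 290.0 kb beyond Mir132, inside exon 2 of the noncoding host gene Mir22hg and an exon of a noncoding transcript of Tlcd2. Mir21a (ENSMUSG00000065455.1, chr11:86584067-86584158, minus strand) lies another 11.1 Mb away, in exon 12, the last exon, of Vmp1, a gene of autophagy. Its hairpin starts 1153 bp past the end of the coding part, in the 3′ UTR of Vmp1 on the same strand.

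**Figure D1:**
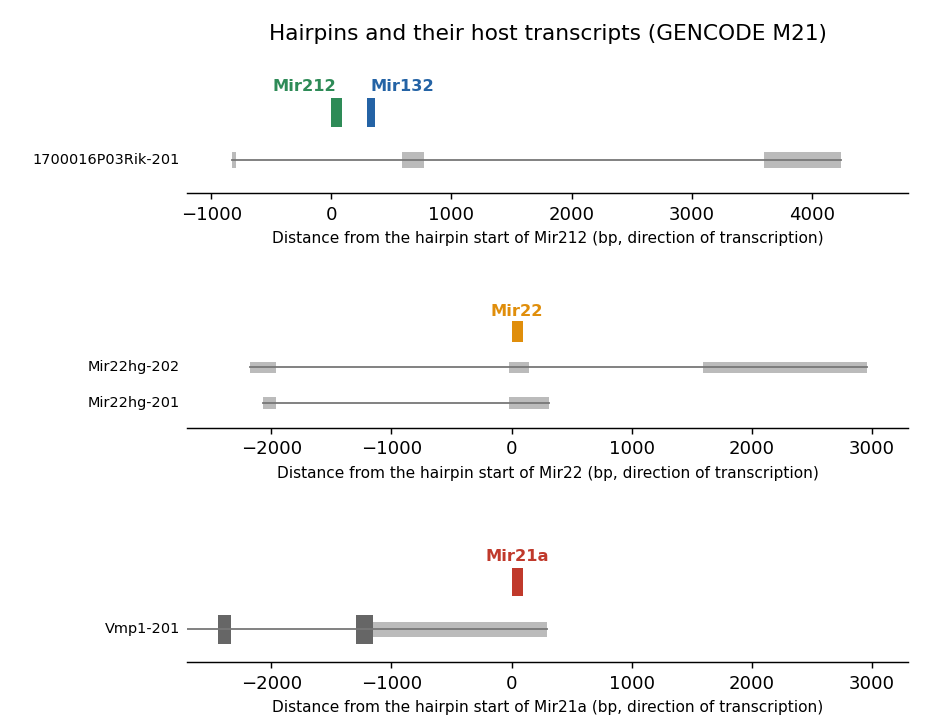
Hairpins of the 4 genes (coloured boxes) above their host transcripts, with distance in bp from a hairpin's start along the direction of transcription on the x axis; light boxes are exons, tall dark boxes coding parts, and lines introns. Mir212 and Mir132 sit 203 bp apart in intron 1, Mir22 inside exon 2 of Mir22hg, and Mir21a past the coding part in the last exon of Vmp1, whose first exons lie outside the window.

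Mir22 and Mir21a were abundant, Mir132 was intermediate and Mir212 was low. Of all counts, the 4 genes together made up 1.57% in replicate 1, 3.93% in replicate 2 and 2.75% ± 1.67 on average (SD, n = 2). Intervals given with the levels are 95% Clopper-Pearson intervals of 1 library's count, so they cover the counting error of reads in that library only. The labels name no molecular identifiers, so reads copied from 1 molecule cannot be told apart and the intervals may be too narrow.

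Mir22 had 63214 counts in replicate 1, or 9851 CPM (interval 9774 to 9927), and 109757 counts in replicate 2, or 19384 CPM (19271 to 19498). Its mean of 14617 ± 6741 CPM (SD, n = 2) placed it 18th of all genes, at place 22 in replicate 1 and place 15 in replicate 2. Replicate 2 was the higher heart, and its level was far outside the counting interval of replicate 1.

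Mir21a had 33690 counts in replicate 1, or 5249.9 CPM (interval 5194 to 5306), and 109355 counts in replicate 2, or 19313 CPM (19199.9 to 19427). Its mean was 12281 ± 9944 CPM (SD, n = 2), at place 20, and its coefficient of variation of 81.0% was the highest of the 4 genes. Counting alone would give a coefficient of 0.545% in replicate 1 and 0.302% in replicate 2. Reads from the opposite strand numbered 0 in replicate 1 and 2 in replicate 2, and the other 3 genes had none in either library.

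Mir132 had 3448 counts in replicate 1, or 537 CPM (interval 519.5 to 556), and 3156 counts in replicate 2, or 557 CPM (538 to 577). Its mean of 547 ± 14.2 CPM (SD, n = 2) stood at place 97, and its counting intervals overlapped between the hearts. Its coefficient of variation was 2.59%, near the 1.70% and 1.78% that counting alone gives in replicates 1 and 2.

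Mir212 had 183 counts in replicate 1, or 28.5 CPM (interval 24.5 to 33.0), and 109 counts in replicate 2, or 19.3 CPM (15.8 to 23.2). Its mean of 23.9 ± 6.55 CPM (SD, n = 2) stood at place 241. It was the 1 gene of the 4 whose level was lower in replicate 2. Its level was 0.343 times that of the median gene with 10 counts in each library in replicate 1 and 0.288 times in replicate 2, against 6.47 and 8.33 times for Mir132.

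**Figure D2:**
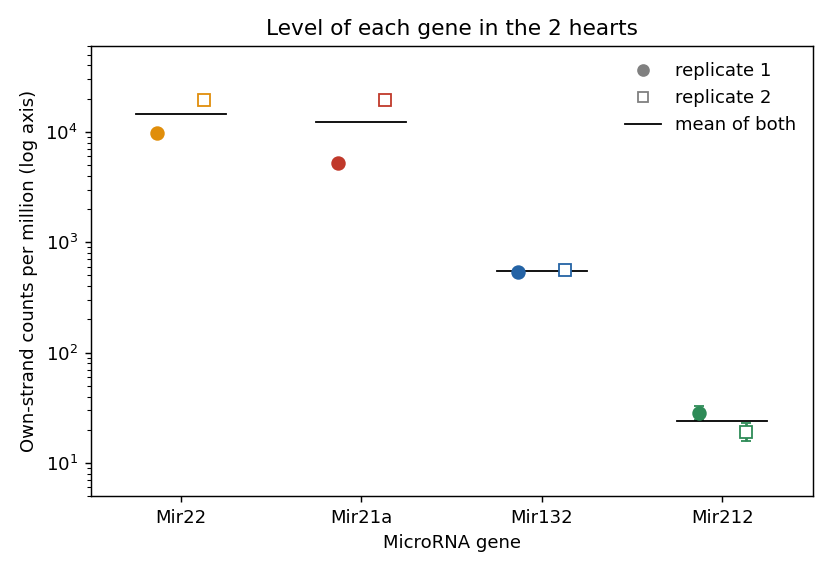
Own-strand CPM (y, log axis) of the 4 genes (x) in replicate 1 (filled circles) and replicate 2 (open squares), with 95% counting intervals as bars, visible only where wider than the symbol, and the mean of both hearts as a line. Mir22 and Mir21a stood apart between the hearts, at 9851 and 5249.9 CPM in replicate 1 and 19384 and 19313 CPM in replicate 2, while the Mir132 symbols lay at 537 and 557 CPM.

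The order of the members was not equally firm along its length. Mir22 exceeded Mir21a 1.88-fold in replicate 1 (interval 1.85 to 1.90), but in replicate 2 the ratio was 1.00 (0.995 to 1.01), so their order was not detectable at this depth in that heart, and their means differed by less than the SD of either. Mir21a exceeded Mir132 9.77-fold in replicate 1 and 34.6-fold in replicate 2. Mir132 exceeded Mir212 18.8-fold in replicate 1 (interval 16.2 to 22.0) and 29.0-fold in replicate 2 (23.9 to 35.4), so these 2 steps were larger than the spread between the hearts. Among all genes, the next above Mir22 by mean was Mir30d, which was also above it in each heart, at 10305 CPM in replicate 1 and 19616 CPM in replicate 2. Mir99b, the next below Mir22 and the next above Mir21a, had 19117 CPM in replicate 1 and 9106 CPM in replicate 2, so its order against both was opposite in the 2 hearts. Likewise the neighbours of Mir212, Mir128-2 above and Mir547 below, and Mir146 above Mir132 changed sides between hearts, whereas Mir1983 stayed below Mir132 in both.

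**Figure D3:**
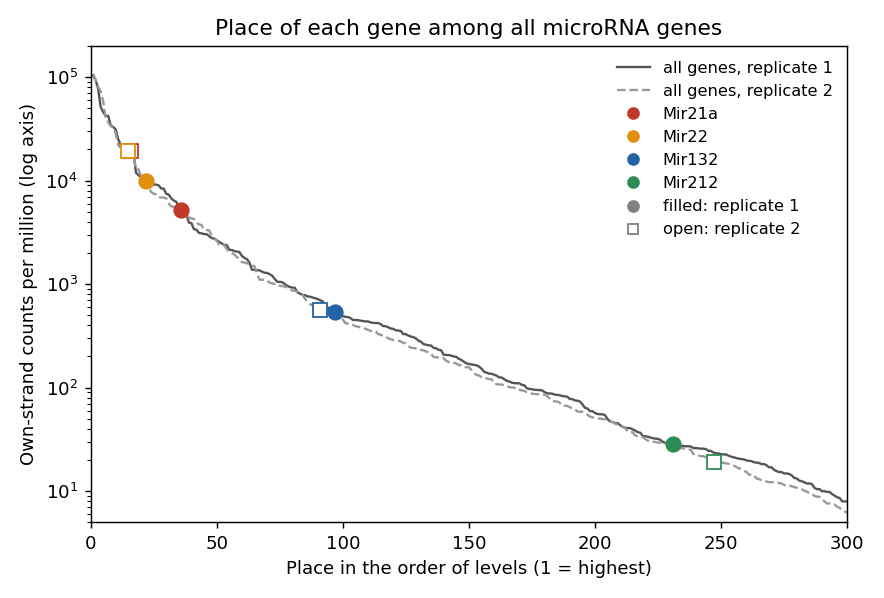
Own-strand CPM (y, log axis) against the place of a gene in the order of levels (x, first 300 places), as lines for all genes in replicate 1 (solid) and replicate 2 (dashed) and as symbols for the 4 genes (filled for replicate 1, open for replicate 2). Mir21a stood at place 36 in replicate 1 and at place 16 in replicate 2, next to Mir22 at place 15, while Mir132 and Mir212 kept to the middle and lower parts.

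Between the hearts, Mir21a and Mir22 were the members that differed by over 2-fold, both higher in replicate 2. Library sizes were scaled by the trimmed mean of M-values (TMM, factors 1.11 and 0.900), and 0.5 was added to each count. Of 491 genes with at least 10 counts over both libraries, 16.7% were past 2-fold, 7.54% higher in replicate 1 and 9.16% higher in replicate 2, against 2 of the 4 members, both higher in replicate 2. With total counts in place of TMM, 13.6% were higher in replicate 1 and 6.31% in replicate 2 (20.0% in all), against 1 of the 4 members, Mir21a. With 1 library on each side the ratios compare 2 hearts and have no replicate check, and the standard errors (SE) below cover counting alone. Scaling by total counts instead raises each log2 ratio by 0.303, which moves the median of the 491 genes to 0.31, against 0.01 with TMM.

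The log2 ratio of replicate 1 over replicate 2 was −2.18 for Mir21a (counting SE 0.01), a level 4.54-fold higher in replicate 2. Of the 491 genes, 14 had a ratio at least as far from 0, Mir21a included. Among the 76 genes with a mean of at least 1000 CPM, 1 other gene did, Mir140. For Mir22 the log2 ratio was −1.28 (counting SE 0.01), 2.43-fold higher in replicate 2, and 54 of the 491 genes were as far from 0 or farther, Mir22 included. With total counts Mir21a stayed past 2-fold at −1.88, but Mir22 came inside it at −0.98.

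In the 76 abundant genes the share past 2-fold was 13.2% with TMM, 10 genes that were all higher in replicate 2. With total counts it was 7.89%, of which 1.32% (1 gene) was higher in replicate 1 and 6.58% (5 genes) in replicate 2. Mir21a and Mir22 were thus among several abundant genes that were higher in replicate 2. Mir132 had a log2 ratio of −0.36 (95% counting interval −0.43 to −0.29) with TMM and −0.053 with total counts, inside 2-fold either way. The TMM interval leaves out 0, so the closeness of the Mir132 levels to counting error, given above in CPM, holds for scaling by total counts only. Mir212 had a ratio of 0.26 (−0.08 to 0.60), an interval that contains 0, and 0.56 with total counts.

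**Figure D4:**
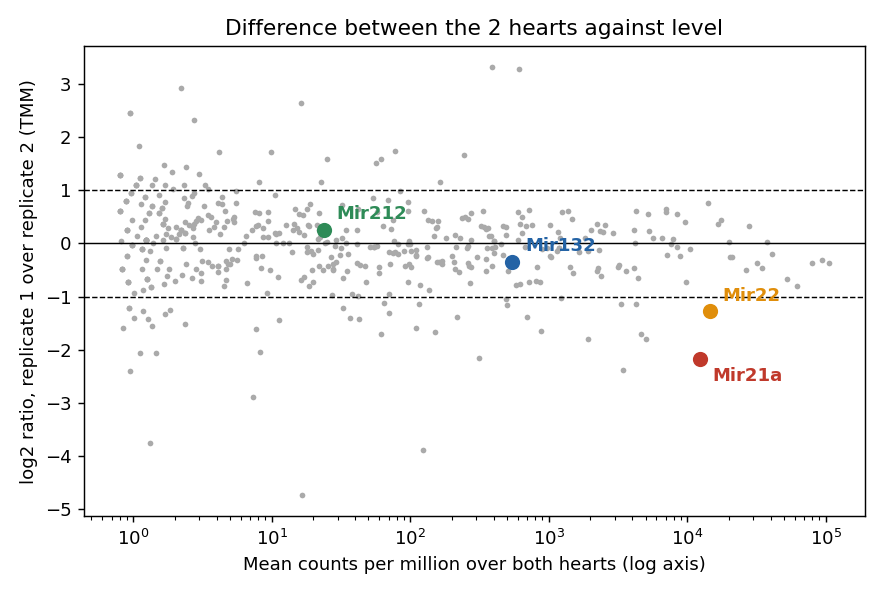
The log2 ratio of replicate 1 over replicate 2 after TMM scaling (y) against the mean CPM of both hearts (x, log axis) for the 491 genes with at least 10 counts over both libraries, with dashed lines at 2-fold and the 4 genes in colour. Mir21a (−2.18) and Mir22 (−1.28) lie under the lower line, and Mir132 (−0.36) and Mir212 (0.26) lie inside the lines.

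Shares within the members do not depend on how libraries are scaled. Mir21a made up 34.8% of the counts of Mir21a and Mir22 in replicate 1 (95% interval 34.5 to 35.1) and 49.9% in replicate 2 (49.7 to 50.1). The log2 ratio of Mir21a was 0.90 below that of Mir22 (difference −0.90, counting interval −0.93 to −0.88), a gap between these 2 libraries beyond their counting error. Mir132 made up 94.96% of the counts of Mir132 and Mir212 in replicate 1 (94.2 to 95.6) and 96.7% in replicate 2 (96.0 to 97.3), or 95.8% ± 1.20 (SD, n = 2). These intervals did not overlap, and the log2 ratio of Mir132 minus that of Mir212 was −0.62 (counting interval −0.97 to −0.27). The interval covers counting error in 2 single libraries and not the spread between hearts, so it says only that these libraries differed. Mir132 held most of the pair in both hearts. Mir132 and Mir212, the only genes with their seed among the RefSeq strands, held 566 CPM together in replicate 1 and 577 CPM in replicate 2. Mir21a and Mir21c, which share the miR-21a-5p seed, held 5249.9 and 19313 CPM together. Mir132 with Mir212 made up 3.61% of the counts of all 4 members in replicate 1 and 1.47% in replicate 2.

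The genes with the most similar pattern were found by distance on log2 CPM over the 2 libraries, among genes with at least 10 counts in each, where only 2 values per gene can be compared. Nearest to Mir22 was Mir30d at a distance of 0.07, with a log2 ratio of −1.23, followed by Mir30a (0.83) and Mir21a (0.91). Nearest to Mir21a were Mir22 (0.91), Mir30d (0.97) and Mir30a (1.04), so no gene lay as close to Mir21a as Mir30d did to Mir22. Mir132 lay nearest to Mir1983 (0.19), Mir146 (0.32) and Mirlet7c-2 (0.33), and Mir212 to Mir103-2 (0.08), Mir3058 (0.15) and Mir302d (0.18). Reads of Mir146, Mirlet7c-2 and Mir103-2 can match another gene over 20 nt or more, so their levels leave out multi-mapped reads.

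Other microRNA genes linked to cardiac hypertrophy in rodents were present at very different levels. Of 12 genes reported to promote it, 11 had 10 counts or more over both libraries, and Mir199a-1 had 0 in both. A stretch of 20 nt recurs in another gene for 4 of these 12 (Mir23a, Mir27b, Mir199a-1 and Mir199a-2). Their counts leave out multi-mapped reads, so their order against the members is that of the counted reads. None of the 11 was past 2-fold higher in replicate 1 and 3 were in replicate 2, Mir499 (log2 ratio −1.80), Mir195a (−1.66) and Mir27b (−1.15), beside 7.54% and 9.16% of all 491 genes. The median ratio of the list was 0.32, against 0.01 over the 491. With total counts 1 was higher in replicate 1 (Mir222, 1.29) and 2 in replicate 2, since Mir27b came inside 2-fold (−0.84). The highest of this list were Mir23a (28059 CPM on average), Mir208a (8451 CPM), Mir499 (5070.1 CPM) and Mir214 (4282 CPM), so by the mean of both hearts Mir22 and Mir21a stood below Mir23a alone. In replicate 1, however, Mir208a was above both (10883 CPM), and Mir214 was above Mir21a (ratio of Mir21a to Mir214 0.938, counting interval 0.924 to 0.952). Of 22 genes reported to oppose it, 19 had enough counts, of which 2 were past 2-fold higher in replicate 1 and 5 in replicate 2, beside the same 7.54% and 9.16%, with a median ratio of −0.45. With total counts 2 were higher in replicate 1 and 3 in replicate 2, since Mir101a (−0.82) and Mir29b-2 (−0.95) came inside 2-fold. The 2 higher in replicate 1 were Mir185 and Mir133a-2 with either scaling. Mir133a-2 had 12 counts in replicate 1 and 2 in replicate 2, the latter under the floor. The highest were Mir378a (105623 CPM), Mir26b (21014 CPM), Mir30a (9749.8 CPM) and Mir98 (4149.8 CPM). A stretch of 20 nt recurs in another gene for 16 of these 22, among them the Mir1a and Mir133 copies, so their counts leave out multi-mapped reads.

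Markers of other cell types moved in different directions between the hearts, and their part in the levels of Mir21a and Mir22 was not tested. In bulk tissue, fewer cells of a type and less RNA per cell cannot be told apart. The fibroblast genes other than Mir21a, 4 of which 1 was at 0, summed to 5656 CPM in replicate 1 and 3034 CPM in replicate 2. Mir214 made up most of that sum (5595 CPM in replicate 1 and 2969 CPM in replicate 2). Mir199b (40.5 and 42.2 CPM) and Mir199a-2 (20.9 and 22.8 CPM) were slightly higher in replicate 2. Reads of Mir199b, Mir199a-2 and Mir199a-1, the gene at 0, can match another gene. Their levels leave out multi-mapped reads, so the part of Mir214 in the sum is that of the counted reads only. The endothelial genes, 2 with Mir126b at 4 counts and 3 counts, summed to 51830.0 CPM and 73011 CPM in replicates 1 and 2, and the 2 smooth muscle genes to 47055 CPM and 60331 CPM. The 7 cardiomyocyte genes summed to 21023 CPM in replicate 1 and 19191 CPM in replicate 2. These sums are scaled by total counts. With TMM each log2 ratio is lower by 0.303, which puts the cardiomyocyte sum higher in replicate 2. The median log2 ratio of these 7 genes was −0.74 with TMM and −0.43 with total counts. The 4 leukocyte genes, among which Mir155 is also a hypertrophy gene, summed to 1301 CPM and 872 CPM, and the 3 erythroid genes to 788 CPM and 299.7 CPM, both sums lower in replicate 2. The leukocyte genes did not move together. Mir155 (810 and 465 CPM) and Mir142 (240 and 87.4 CPM) were lower in replicate 2. Mir223 (83.1 and 148 CPM) and, slightly, Mir150 (168 and 171 CPM) were higher there. The 7 epithelial genes summed to 595 CPM and 662 CPM, and they too did not move together. Mir200c (420 and 284 CPM) and Mir141 (15.6 and 9.89 CPM) were lower in replicate 2. Mir203 (85.55 and 219 CPM), Mir429 (40.7 and 54.7 CPM), Mir200b (27.0 and 58.5 CPM) and Mir205 (1.40 and 31.8 CPM) were higher there. Mir200a was nearly level (4.67 and 4.77 CPM). The 7 neuronal genes, 4 of them at 0 in both hearts, summed to 16.5 CPM and 4.06 CPM. Nearly all of both sums was Mir137 (16.1 and 3.89 CPM). Mir9-2 had 3 counts in replicate 1 and 0 in replicate 2, and Mir9-3 had 0 and 1. Reads of 6 of the neuronal and 4 of the cardiomyocyte genes can also match another gene, so their levels leave out multi-mapped reads.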

How the data were processed

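The authors deposited 1 file of raw counts per microRNA gene and library, with no normalization or pooling. The build mm10 and annotation M21 are per the file headers of the deposited descriptions. RNA below 30 nt was selected, per the labels. For the aligner, counter and trimming, no name or version was given in the sources used here. Of the 3 columns of counts (both strands, own strand, opposite strand), the own-strand column was used. Library sizes leave out the 4 summary entries. Multi-mapped reads (39.6% of reads in replicate 1 and 43.2% in replicate 2) are in no gene's count, and 44.4% and 42.0% of reads were assigned.

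CPM, ranks, shares with exact 95% intervals and log2 ratios were computed here with numpy 2.4.6, pandas 2.3.3 and scipy 1.17.1 in Python 3.11.15. TMM factors came from edgeR 4.0.16 and size factors from DESeq2 1.42.0 (R 4.3.3). The calculation of the ratio was tested on simulated data with counting error only, which cannot show the effect of a spread between hearts. Plots used matplotlib 3.10.9.

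The members and lists were chosen with earlier results of these data known. Named genes were the members, for each the 3 nearest by log2 CPM and the next above and below, genes of the same seed or of the Mir21 name, the 4 highest of each hypertrophy list, and cell type markers. Genes named for being past 2-fold in a list, and Mir140, were named after their values were seen. Mature strands were searched in RefSeq hairpins and M21 transcripts, since a genome was not used here. Alternatives were other scalings, filters, added counts and strand columns, and leaving out each replicate.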

Additional observations from a re-analysis of the deposited data

How the results depend on the processing

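Of 125 alternative values for 34 results, 101 stayed within their spread or counting interval and 24 moved. With 2 replicates, leaving 1 out always gives a mean level, sum or share within the SD, so those values could not move. Shares with both strands together were also all but fixed, because the members had almost no opposite-strand reads. The 101 therefore overstates how far the results were checked. None of the members' ratios changed sign in the settings run. With total counts the log2 ratio was −1.88 for Mir21a, −0.98 for Mir22, which is then inside 2-fold, and −0.053 for Mir132. With both strands together it was −2.10, −1.20 and −0.27 for the same genes, and with DESeq2 size factors −1.27 for Mir22. Adding multi-mapped reads to the library total lowered the mean level to 6143 CPM for Mir21a, which is within its SD, 7376 CPM for Mir22, 279 CPM for Mir132 and 12.3 CPM for Mir212. With both strands together Mir132 averaged 684 CPM and stood at place 89, and Mir212 at place 220. Their own counts were the same in that column, so the higher levels came from smaller library totals, 5193667 in replicate 1 and 4484557 in replicate 2. Some genes lost their counts there, such as Mir378a, first by mean own-strand CPM, which had 0 in both libraries. Among genes without a shared stretch Mir132 stood at place 83 and Mir212 at place 187. The number of genes past 2-fold was 82 of 491, 37 higher in replicate 1 and 45 in replicate 2. Genes higher in replicate 1 numbered 67 with total counts (against 31 in replicate 2), 137 with no filter, 14 with 10 counts in each library and 0 above 1000 CPM. Genes higher in replicate 2 numbered 144 with no filter, 30 with 10 counts in each library and 10 above 1000 CPM. In either direction these settings gave 281, 44 and 10 genes. Leaving out replicate 1 or replicate 2 gave 5249.9 to 19313 CPM for Mir21a, 9851 to 19384 CPM for Mir22, 537 to 557 CPM for Mir132 and 19.3 to 28.5 CPM for Mir212. No paired analysis was possible because there is only 1 group. The depth limits Mir212 most, with 183 and 109 counts in replicates 1 and 2.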

Other observations

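Chromosome 11 carries 137 of the microRNA genes counted, of which 29 had at least 10 counts in each library. Mir22 and Mir21a were the highest of them by mean CPM, followed by Mir744 (9297 CPM in replicate 1 and 4782 CPM in replicate 2) and Mir423 (4940.1 and 3352 CPM), and Mir132 was the tenth. The chromosome held 3.72% of all counts in replicate 1 and 5.39% in replicate 2. The 4 members made up 42.2% of the chromosome's counts in replicate 1 and 72.9% in replicate 2. With the members left out of both the chromosome and the library, the other 133 genes held 2.18% in replicate 1 and 1.52% in replicate 2, so the chromosome's share was higher in replicate 2 with the members and lower without them. Of the 29 genes, 3 were past 2-fold higher in replicate 1 (Mir451a, Mir144 and Mir142) and 4 in replicate 2 (Mir21a, Mir22, Mir195a and Mir340), with a median log2 ratio of 0.20. Over all 373 genes with 10 counts in each library these shares were 3.75% and 8.04%. With total counts 4 of the 29 were higher in replicate 1, Mir1934 added, and 3 in replicate 2, since Mir22 came inside 2-fold (−0.98), beside 7.51% and 5.36% of the 373.

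Among the 50 genes of highest mean level, Mir21a changed its place by 20 between the libraries, and 4 genes including it moved as far or farther, the others being Mir140, Mir499 and Mir298. Mir22 moved by 7 places. Genes of this paragraph and the last, other than the 4 members, were named after their values were seen.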
